A study of Homo sapiens with 6 samples.

Results

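The aldo-keto and carbonyl reductases described here are 9 of the 26485 genes in the expression tables: AKR1A1, AKR1B1, AKR1B10, AKR1B15, AKR1C1, AKR1C2, AKR1C3, CBR1 and CBR3. They were matched by gene symbol under a rule that sets no threshold on their values, although the set was proposed with earlier results of these data known. All 9 were at 5.14 TPM or more in every library and passed the filter on low values. TPM is a transcript level scaled for transcript length and for the total of a library. Messenger RNA was sequenced from PC9-AMG, PC9-BrM4 and PC9, with 2 libraries per line. PC9 is an established lung adenocarcinoma line that carries an activating EGFR mutation, and PC9-BrM4 is known, though not from the labels, as its derivative selected for metastasis to the brain. What AMG stands for, and whether either subline is a clone, is not stated in the labels. All 3 lines were grown in conventional culture and the labels name no treatment of any of them, nor how either subline was derived.

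Aldo-keto reductases and the short-chain carbonyl reductases use NADPH to turn aldehydes and ketones into alcohols. Their substrates include sugars, retinal, steroids, prostaglandins, products of lipid peroxidation and anthracycline drugs. Several AKR1B and AKR1C genes are known targets of NRF2, a transcription factor that KEAP1 holds down until oxidants or electrophiles arrive, and high AKR1B10 and AKR1C levels are known in lung cancers of smokers and in those with KEAP1 or NRF2 mutations.

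The AKR1C genes lie side by side on chromosome 10 and their promoters are shown because these genes were all lower in both sublines, while the CBR1 promoter is shown because CBR1 was higher in both. RefSeq (GRCh38.p14) gave 8 windows, from 250 bases before to 50 bases after a transcription start, for 6 of the 9 genes. AKR1B10, AKR1B15 and CBR3 have no entry in that table. Both strands were searched for 4 short motifs: TGACNNNGC, the core of the antioxidant response element that NRF2 binds, TGACTCA, the AP-1 site, CCAAT, the box bound by NF-Y, and GCGTG, the core bound by the aryl hydrocarbon receptor. The letters TGACTCA and TGACNNNGC can overlap in a longer element. The 250 bases before each start are printed 5′ to 3′, with CCAAT on the opposite strand (ATTGG) in capitals for AKR1C and the antioxidant response core on the opposite strand (GCAAAGTCA) in capitals for CBR1.
AKR1C1 (chr10:4963165-4963414, plus strand): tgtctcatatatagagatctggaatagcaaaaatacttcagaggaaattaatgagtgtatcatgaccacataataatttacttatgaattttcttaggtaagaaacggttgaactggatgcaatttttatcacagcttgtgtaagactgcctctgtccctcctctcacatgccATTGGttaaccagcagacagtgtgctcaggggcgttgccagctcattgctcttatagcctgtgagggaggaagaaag
AKR1C2 (chr10:5003858-5004107, minus strand): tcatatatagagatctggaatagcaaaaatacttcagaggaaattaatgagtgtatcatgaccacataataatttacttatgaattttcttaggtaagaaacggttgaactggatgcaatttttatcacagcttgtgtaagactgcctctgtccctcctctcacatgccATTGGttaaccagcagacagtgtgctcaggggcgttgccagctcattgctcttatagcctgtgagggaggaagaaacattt
AKR1C3 first start (chr10:5048531-5048780, plus strand): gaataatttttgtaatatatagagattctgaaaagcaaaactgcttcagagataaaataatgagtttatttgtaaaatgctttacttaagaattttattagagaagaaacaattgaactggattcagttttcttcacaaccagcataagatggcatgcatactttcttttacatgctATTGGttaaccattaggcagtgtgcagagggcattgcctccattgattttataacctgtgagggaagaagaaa
AKR1C3 second start (chr10:5094164-5094413, plus strand): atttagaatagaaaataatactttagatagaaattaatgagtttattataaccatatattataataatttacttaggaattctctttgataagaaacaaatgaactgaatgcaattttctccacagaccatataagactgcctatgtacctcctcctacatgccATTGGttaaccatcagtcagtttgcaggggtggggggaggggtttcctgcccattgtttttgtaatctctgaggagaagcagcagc
CBR1 (chr21:36069774-36070023, plus strand): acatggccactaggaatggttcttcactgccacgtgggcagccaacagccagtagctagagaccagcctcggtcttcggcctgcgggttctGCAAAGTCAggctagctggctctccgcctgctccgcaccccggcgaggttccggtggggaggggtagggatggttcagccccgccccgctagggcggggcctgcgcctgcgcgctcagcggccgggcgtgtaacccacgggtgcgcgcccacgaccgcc
The AKR1C2 stretch lies inside the span of that gene in the expression data, which runs to 5018033 on the minus strand. A start at the outer end of that span would not be shown. The stretch before the second AKR1C3 start also lies inside the span of its gene. Those of AKR1C1, CBR1 and the first AKR1C3 start run into their gene spans, which begin at 4963262, 36069924 and 5048766. Positions before a start are counted from the RefSeq starts. The AKR1C1 and AKR1C2 stretches matched at 245 of 246 aligned bases (99.6%). AKR1C1 matched the stretch before the first AKR1C3 start at 189 of 239 aligned bases (79.1%). Each AKR1C window held 1 CCAAT match, at -77 in AKR1C1, -81 in AKR1C2 and -73 and -86 at the 2 AKR1C3 starts, counted to its first printed base. CCAAT was found in 34.6% of all 35116 windows in the table. TGACNNNGC was found in CBR1 at -159 and in no other member window, against 13.3% of all windows. GCGTG was found in AKR1B1 and CBR1, against 36.5% of all windows, and TGACTCA in no member window, against 4.95% of all. These are matches of letters only, and a window without a match says nothing of elements elsewhere.

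The libraries rested on an estimated 2.66 to 4.39 gigabases of aligned sequence and held 13455 to 13764 genes at 1 TPM or more. The replicates of a line correlated over genes at r of 0.994 to 0.996. All 7 epithelial markers were present, with summed TPM of 14002 to 14500 in PC9-AMG, 9472 to 9598 in PC9-BrM4 and 12205 to 12291 in PC9. None of 5 lung lineage markers reached 1 TPM in any library, and SFTPC and SFTA2 were listed at 0 in all of them, so the lung origin rests on the labels. Of 5 leukocyte markers only CSF1R reached 1 TPM, with a list sum of 4.43 to 5.20 TPM in PC9-AMG, 1.19 to 1.39 in PC9-BrM4 and 1.03 to 1.27 in PC9. Of 7 fibroblast and endothelial markers COL1A1, PECAM1 and CDH5 reached 1 TPM, with a list sum of 20.3 to 20.7 TPM in PC9-AMG, 5.99 to 6.67 in PC9-BrM4 and 8.94 to 9.54 in PC9, and COL1A2 and DCN were at 0. Of 7 neural and glial markers ALDH1L1 and MBP reached 1 TPM, with a list sum of 56.3 to 56.5 TPM in PC9-AMG, 47.6 to 48.5 in PC9-BrM4 and 45.3 to 46.3 in PC9, and RBFOX3 was at 0. The part of these markers in the results was not tested.

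The 9 reductases together made up 3304 ± 43.9 TPM in PC9-AMG, 4019 ± 142 TPM in PC9-BrM4 and 6613 ± 158 TPM in PC9 (SD, n = 2 each). That is 0.330% of all transcripts in PC9-AMG, 0.402% in PC9-BrM4 and 0.661% in PC9. The sum in PC9-AMG was 0.4996 times that in PC9, and the sum in PC9-BrM4 was 0.608 times that in PC9. No library of a line overlapped those of another, but an exact two-sided permutation test of 2 libraries against 2 cannot give less than p = 0.333, which each pair of lines gave. With bulk RNA, fewer cells with a transcript and less of it per cell cannot be told apart.

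Differences between lines were fitted with limma on log2(TPM + 1) over 14195 genes, and an adjusted p under 0.05 was called a change. In PC9-BrM4 against PC9, 2 of the 9 reductases rose and 7 fell. The background was high, since 46.6% of all tested genes were called, 23.4% higher and 23.1% lower. The median difference of the members was -0.83, against 0.00 over all tested genes. In PC9-AMG against PC9, 1 rose, 6 fell and 2 did not pass, where 55.5% of all genes were called, 27.8% higher and 27.7% lower. The median difference of the members there was -0.88, against -0.01 over all genes. These comparisons share the PC9 libraries. In PC9-AMG against PC9-BrM4, 4 rose, 4 fell and 1 did not pass, where 56.1% of all genes were called, 28.1% higher and 28% lower. The median difference of the members was -0.05, against -0.01 over all genes.

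**Figure D1:**
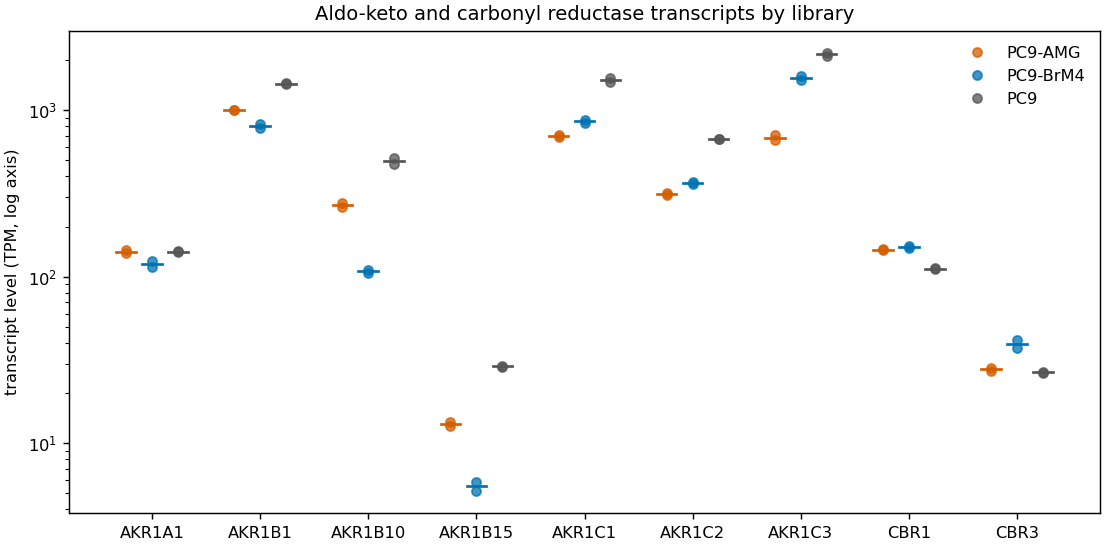
Transcript level in TPM (vertical log axis) of the 9 reductases in every library, with PC9-AMG, PC9-BrM4 and PC9 from left to right for each gene. Points are libraries and bars are means of 2. AKR1C1, AKR1C2, AKR1C3, AKR1B1, AKR1B10 and AKR1B15 are highest in PC9, and CBR1 is lowest in PC9.

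The order of levels differed between lines. In PC9-AMG, AKR1B1 was the highest at a mean of 1006 TPM, followed by AKR1C1 at 701 and AKR1C3 at 685, whose libraries overlapped. Then came AKR1C2 at 314, AKR1B10 at 269, CBR1 at 145, AKR1A1 at 142, CBR3 at 27.7 and AKR1B15 at 13.0 TPM. In PC9-BrM4 the order was AKR1C3 at 1569, AKR1C1 at 860, AKR1B1 at 804, AKR1C2 at 363, CBR1 at 151, AKR1A1 at 119, AKR1B10 at 108, CBR3 at 39.5 and AKR1B15 at 5.49 TPM. In PC9 it was AKR1C3 at 2168, AKR1C1 at 1526, AKR1B1 at 1443, AKR1C2 at 670, AKR1B10 at 497, AKR1A1 at 141, CBR1 at 112, AKR1B15 at 28.9 and CBR3 at 26.6 TPM. No other neighbours in these orders overlapped between their libraries. AKR1C3 stood at place 44 to 203 among all genes of a library by TPM, and AKR1B15 at place 5745 to 10947. These orders hold for TPM. By the deposited mean coverage, AKR1C3 lay below AKR1C1 and AKR1B1 in every library. In PC9 replicate 1 that coverage was 1015 for AKR1C3, 2282 for AKR1C1 and 2110 for AKR1B1.

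AKR1B10 showed the widest gap between PC9-BrM4 and PC9 among the abundant members. It reduces retinal and other aldehydes, is normally an intestinal enzyme, and lies at chr7:134527592-134541414 on the plus strand (hg38, like all gene positions here). Its level was 261 and 277 TPM in PC9-AMG, 110 and 106 TPM in PC9-BrM4, and 516 and 478 TPM in PC9. The 3 lines did not overlap, with PC9 highest and PC9-BrM4 lowest. The log2 difference was -2.19 (SE 0.0535) in PC9-BrM4 against PC9, with an adjusted p of 5.36e-07. It was -0.88 in PC9-AMG against PC9 (adjusted p = 2.17e-05) and 1.31 in PC9-AMG against PC9-BrM4 (adjusted p = 2.44e-06).

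AKR1B15, its close neighbour at chr7:134549097-134579840 on the plus strand, encodes a reductase known to act on steroids and retinal. It was far less abundant, at 12.6 and 13.4 TPM in PC9-AMG, 5.84 and 5.14 TPM in PC9-BrM4, and 28.8 and 28.9 TPM in PC9. The lines took the same order as for AKR1B10, without overlap. The fitted log2 difference was -2.20 (SE 0.0804) in PC9-BrM4 against PC9 (adjusted p = 2.78e-06), -1.09 in PC9-AMG against PC9 (adjusted p = 4.55e-05) and 1.11 in PC9-AMG against PC9-BrM4 (adjusted p = 2.86e-05). These genes share sequence. Of the 75-base windows of AKR1B15 transcripts (GENCODE 29), 4.65% also occur in AKR1B10, and 7.45% of AKR1B10 windows occur in another gene, so a part of the AKR1B15 value may belong to its more abundant neighbour. AKR1B10 was 20.7 ± 0.0535 times AKR1B15 in PC9-AMG, 19.7 ± 1.17 times in PC9-BrM4 and 17.2 ± 0.989 times in PC9 (SD, n = 2 each). With both summed, the log2 difference was -2.20 in PC9-BrM4 against PC9, -0.90 in PC9-AMG against PC9 and 1.31 in PC9-AMG against PC9-BrM4.

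AKR1B1 is aldose reductase, which opens the polyol pathway by turning glucose into sorbitol, and also reduces prostaglandin H2 and lipid aldehydes. It lies at chr7:134442355-134459136 on the minus strand. Its level was 1005 and 1007 TPM in PC9-AMG, 830 and 778 TPM in PC9-BrM4, and 1452 and 1433 TPM in PC9. PC9 was again highest and PC9-BrM4 lowest, without overlap. In the fit, the log2 difference was -0.84 (SE 0.0428) in PC9-BrM4 against PC9 (adjusted p = 1.14e-05) and -0.52 in PC9-AMG against PC9 (adjusted p = 7.22e-05). In PC9-AMG against PC9-BrM4 it was 0.32 (adjusted p = 0.000517), and this call was lost, at 0.11 and an adjusted p of 0.142, when the regional median was taken off. The regional median is taken in each library over the tested genes within 5 Mb that are no members. It is the median of their log2 values, each gene centred on its mean over all libraries. The differences of AKR1B1 were smaller than those of AKR1B10, and AKR1B1 was 3.75 ± 0.152 times AKR1B10 in PC9-AMG, 7.46 ± 0.118 times in PC9-BrM4 and 2.91 ± 0.131 times in PC9 (SD, n = 2 each, libraries of the 3 lines not overlapping, exact permutation p = 0.333 for each pair). Of the rest of the polyol pathway, 3 of 5 listed genes were tested. None of the 3 passed in PC9-BrM4 against PC9. Only TKFC, which phosphorylates dihydroxyacetone and glyceraldehyde, passed in the other comparisons, lower in PC9-AMG (34.97 TPM) than in PC9-BrM4 (43.6 TPM) and PC9 (46.8 TPM).

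The AKR1C genes had their lowest TPM in PC9-AMG, though for AKR1C1 and AKR1C2 the difference between the sublines turned when the region was taken into account. AKR1C1, which inactivates progesterone by reducing its C20 ketone, lies at chr10:4963262-4977966 on the plus strand. It had 708 and 695 TPM in PC9-AMG, 879 and 841 TPM in PC9-BrM4, and 1571 and 1481 TPM in PC9. No line overlapped another. The log2 difference was -0.83 (SE 0.0449) in PC9-BrM4 against PC9 (adjusted p = 1.47e-05), -1.12 in PC9-AMG against PC9 (adjusted p = 4.38e-06) and -0.29 in PC9-AMG against PC9-BrM4 (adjusted p = 0.00106). With the regional median of each library taken off, the last of these turned to 0.17 (adjusted p = 0.0607).

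AKR1C2, which inactivates dihydrotestosterone, lies at chr10:4987776-5018033 on the minus strand. It had 309 and 319 TPM in PC9-AMG, 368 and 358 TPM in PC9-BrM4, and 673 and 668 TPM in PC9. PC9-AMG was lowest and PC9 highest, without overlap. The fitted log2 difference was -0.88 (SE 0.0386) in PC9-BrM4 against PC9 (adjusted p = 6.36e-06), -1.09 in PC9-AMG against PC9 (adjusted p = 3.33e-06) and -0.21 in PC9-AMG against PC9-BrM4 (adjusted p = 0.00258). With the regional median taken off, the last of these turned to 0.25 (adjusted p = 0.00902), a call in the other direction. AKR1C1 and AKR1C2 are close in sequence, and 35.4% of the 75-base windows of AKR1C2 transcripts also occur in AKR1C1, so the split of reads between them is uncertain. AKR1C1 was 2.24 ± 0.0767 times AKR1C2 in PC9-AMG, 2.37 ± 0.0283 times in PC9-BrM4 and 2.28 ± 0.0827 times in PC9 (SD, n = 2 each). These ratios overlapped between PC9-AMG and PC9, with an exact two-sided permutation p of 0.667.

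AKR1C3, which makes testosterone from androstenedione and prostaglandin F2 from prostaglandin H2 and D2, lies at chr10:5048766-5107686 on the plus strand. It had 665 and 706 TPM in PC9-AMG, 1616 and 1522 TPM in PC9-BrM4, and 2204 and 2132 TPM in PC9. PC9-AMG stood far below both other lines. In the fit, the log2 difference was -0.47 (SE 0.0488) in PC9-BrM4 against PC9 (adjusted p = 0.000272), -1.66 in PC9-AMG against PC9 (adjusted p = 2.12e-06) and -1.19 in PC9-AMG against PC9-BrM4 (adjusted p = 2.45e-06). Of its 75-base windows, 6.17% occur in another gene.

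The make-up of the AKR1C transcripts was set side by side over the lines. AKR1C3 was 40.3 ± 1.06% of the AKR1C sum in PC9-AMG, 56.2 ± 0.365% in PC9-BrM4 and 49.7 ± 0.176% in PC9 (SD, n = 2 each). AKR1C1 was 41.3 ± 1.17% in PC9-AMG, 30.8 ± 0.147% in PC9-BrM4 and 34.96 ± 0.510% in PC9. AKR1C3 was 0.978 ± 0.0534 times AKR1C1 in PC9-AMG, 1.82 ± 0.0206 times in PC9-BrM4 and 1.42 ± 0.0258 times in PC9. None of these 3 quantities overlapped between lines, and each pair of lines gave the smallest exact permutation p, 0.333. They rest on TPM. By the deposited mean coverage, AKR1C3 was lower than AKR1C1 in every library, at 346 against 1162 in PC9-AMG replicate 1. It was 684 against 1174 in PC9-BrM4 replicate 1 and 1015 against 2282 in PC9 replicate 1. The AKR1C sum was 1701 ± 27.2 TPM in PC9-AMG, 2792 ± 100.4 TPM in PC9-BrM4 and 4365 ± 118 TPM in PC9. Fitted in place of its 3 genes, the sum had a log2 difference of -0.64 (adjusted p = 4.37e-05) in PC9-BrM4 against PC9, -1.36 (adjusted p = 2.46e-06) in PC9-AMG against PC9 and -0.71 (adjusted p = 1.43e-05) in PC9-AMG against PC9-BrM4. AKR1C4 is not in this sum, and since TPM is scaled for transcript length the sum can still move with how reads were split between the genes.

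**Figure D2:**
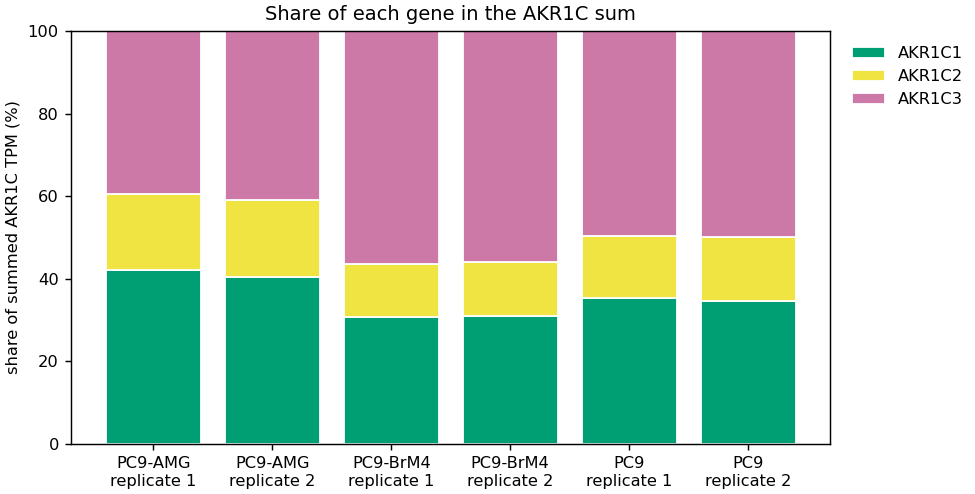
Share of AKR1C1, AKR1C2 and AKR1C3 in their summed TPM (vertical axis, percent) in each of the 6 libraries. AKR1C3 takes the smallest share in PC9-AMG, at a mean of 40.3%, and the largest in PC9-BrM4, at 56.2%, with 49.7% in PC9.

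CBR1 was the member that rose in both sublines. It reduces quinones, prostaglandin E2 and anthracyclines such as doxorubicin, and lies at chr21:36069924-36073177 on the plus strand. Its level was 145 and 146 TPM in PC9-AMG, 148 and 153 TPM in PC9-BrM4, and 112 and 111 TPM in PC9. The sublines lay above PC9 in every library and close to each other. The log2 difference was 0.43 (SE 0.0408) in PC9-BrM4 against PC9 (adjusted p = 0.000176) and 0.38 in PC9-AMG against PC9 (adjusted p = 0.000229). In PC9-AMG against PC9-BrM4 it was -0.05, with a 95% interval of -0.15 to 0.04 and an adjusted p of 0.304.

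CBR3, a relative of CBR1 with a narrower known range of substrates, lies at chr21:36134965-36146562 on the plus strand. It had 28.3 and 27.2 TPM in PC9-AMG, 37.4 and 41.5 TPM in PC9-BrM4, and 26.8 and 26.3 TPM in PC9. PC9-BrM4 stood above both other lines. The fitted log2 difference was 0.55 (SE 0.0660) in PC9-BrM4 against PC9 (adjusted p = 0.000486) and -0.49 in PC9-AMG against PC9-BrM4 (adjusted p = 0.000552). In PC9-AMG against PC9 it was 0.06, with a 95% interval of -0.09 to 0.21 and an adjusted p of 0.475. CBR3-AS1, annotated across CBR3 on the other strand, had 6.54 and 5.26 TPM in PC9-AMG, 3.73 and 3.21 TPM in PC9-BrM4, and 3.20 and 3.35 TPM in PC9. Whether counting used strand is not stated, so reads of CBR3 and CBR3-AS1 may not have been told apart. CBR3 was highest in PC9-BrM4 and CBR3-AS1 in PC9-AMG.

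AKR1A1, a broadly expressed aldehyde reductase, lies at chr1:45550783-45570051 on the plus strand. It had 139 and 144 TPM in PC9-AMG, 124 and 114 TPM in PC9-BrM4, and 140 and 142 TPM in PC9. PC9-AMG and PC9 overlapped, and PC9-BrM4 lay below both. In the fit, the log2 difference was -0.25 (SE 0.0537) in PC9-BrM4 against PC9 (adjusted p = 0.00754) and 0.25 in PC9-AMG against PC9-BrM4 (adjusted p = 0.00552). In PC9-AMG against PC9 it was 0.00, with a 95% interval of -0.12 to 0.13 and an adjusted p of 0.972, and its sign turned under other scalings. With the regional median taken off, it was called lower in PC9-AMG than in PC9 (-0.41, adjusted p = 0.0018), and the difference between the sublines turned to -0.05 (adjusted p = 0.572).

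**Figure D3:**
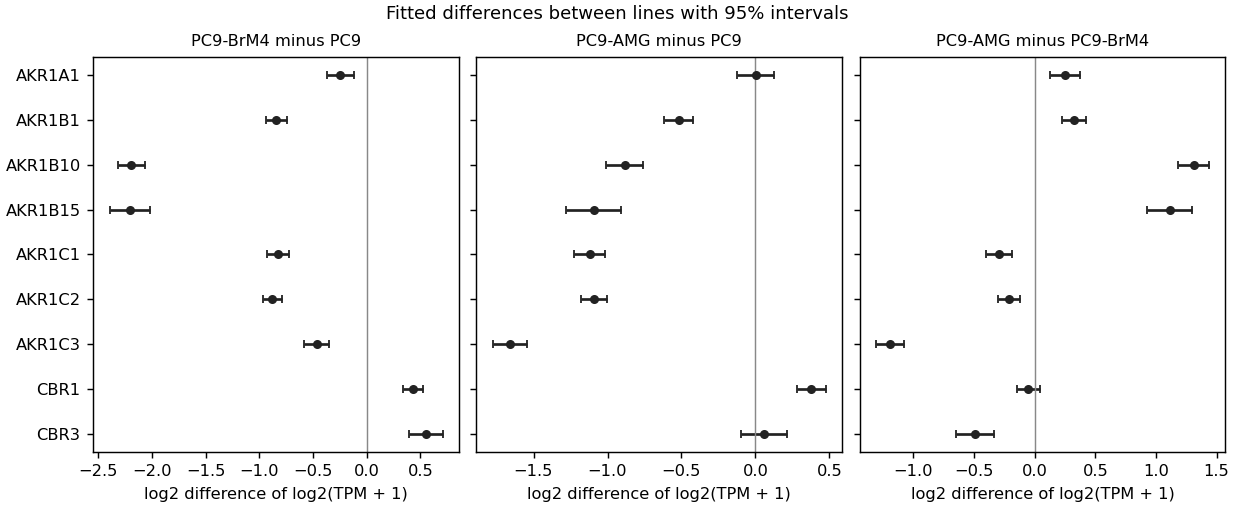
Fitted log2 differences of log2(TPM + 1) with 95% intervals (horizontal axis) for the 9 reductases in the 3 comparisons of lines. AKR1B10 and AKR1B15 lie near -2.2 in PC9-BrM4 minus PC9, AKR1C3 lies lowest in PC9-AMG minus PC9 at -1.66, and the intervals of AKR1A1 and CBR3 in PC9-AMG minus PC9 and of CBR1 in PC9-AMG minus PC9-BrM4 span 0.

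Each locus was compared with its neighbours. Copy number was not measured. Around AKR1B10, the median log2 difference of the 41 other tested genes within 5 Mb was -0.25 in PC9-BrM4 against PC9, with 2 called higher and 21 lower, and -0.02 in PC9-AMG against PC9, with 4 called higher and 12 lower. AKR1B10 and AKR1B15 fell further than that median in both comparisons. Of the nearest tested genes, EXOC4, a part of the exocyst, had 37.3 TPM in PC9-AMG, 34.6 in PC9-BrM4 and 53.5 in PC9, and passed against PC9 in both sublines. SLC35B4, a nucleotide sugar transporter, had 13.9 and 13.0 TPM in PC9-AMG, 9.58 and 10.4 TPM in PC9-BrM4, and 15.2 and 15.9 TPM in PC9, and fell in PC9-BrM4 (log2 difference -0.59). On the other side CALD1, an actin-binding protein, had 100.4 TPM in PC9-AMG, 55.9 in PC9-BrM4 and 85.6 in PC9, while BPGM, a bisphosphoglycerate mutase, had 22.3 TPM in PC9-AMG, 25.2 in PC9-BrM4 and 26.0 in PC9 and did not pass in any comparison. C7orf49 also passed in none, and MIR3654, which lies farthest off, fell by 0.18 in PC9-BrM4 and by 0.17 in PC9-AMG on the log2 scale, both against PC9.

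Around AKR1C1, the median of the 31 other tested genes within 5 Mb was 0.08 in PC9-BrM4 against PC9, with 13 called higher and 5 lower. In PC9-AMG it was -0.33 against PC9, with 3 called higher and 17 lower, and -0.44 against PC9-BrM4, with 4 called higher and 22 lower. AKR1C4, described below, is among the 31 genes, and its own difference, -0.44 with an SE of 1.94, is that last median. Taking off the regional median of each library, which need not equal these median differences, turned AKR1C1 and AKR1C2 in PC9-AMG against PC9-BrM4, as given above. The calls of AKR1C3 in that comparison and of all 3 genes against PC9 held in both sublines. NET1, a guanine nucleotide exchange factor, had 57.5 TPM in PC9-AMG, 94.4 in PC9-BrM4 and 122.7 in PC9, and fell in both sublines. CALML5, a calmodulin-like protein of keratinocytes, had 3.46 TPM in PC9-AMG, 130 in PC9-BrM4 and 2.34 in PC9. On the other side PITRM1, a mitochondrial protease, was lower in PC9-AMG, at 116 TPM against 155 in PC9-BrM4 and 147 in PC9. KLF6 and the noncoding LINC00704 fell in PC9-BrM4 against PC9, by 0.26 and 0.87 on the log2 scale, and did not pass in PC9-AMG against PC9. AKR1C4, the liver-type member of the cluster, was listed at 0 and 28.1 TPM in PC9-AMG, at 0 and 52.7 TPM in PC9-BrM4, and at 79.5 and 84.6 TPM in PC9. It did not pass in any comparison, with adjusted p of 0.178 in PC9-BrM4 against PC9 and 0.121 in PC9-AMG against PC9, and a value of 0 beside such levels may be a failed estimate.

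Around CBR1, the median of the 45 other tested genes within 5 Mb was 0.13 in PC9-BrM4 against PC9, with 17 called higher and 1 lower. In PC9-AMG against PC9 it was 0.09, with 15 called higher and 6 lower. CBR1 rose further than the regional median difference in both comparisons. Of the genes beside it, SETD4, a SET domain protein, rose in PC9-BrM4 (0.26), as did CHAF1B, a subunit of chromatin assembly factor (0.24), and DOPEY2 (0.56). DOPEY2 also rose in PC9-AMG against PC9 (0.29), as did RCAN1, a calcineurin inhibitor (0.71), whereas MORC3 and RUNX1 passed against PC9 in neither subline. Around AKR1A1, the median of the 97 other tested genes was 0.10 in PC9-BrM4 against PC9, with 34 called higher and 8 lower. In PC9-AMG against PC9 it was 0.37, with 66 called higher and 6 lower. Of the genes nearest AKR1A1, PRDX1, a peroxiredoxin, and GPBP1L1 rose in PC9-AMG against PC9, by 0.28 and 0.49, as did the low-level CCDC163P and MMACHC, while NASP, a histone chaperone, fell by 0.15 and CCDC17 did not pass. In PC9-BrM4 against PC9, PRDX1 fell by 0.18 and the others of these genes did not pass.

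**Figure D4:**
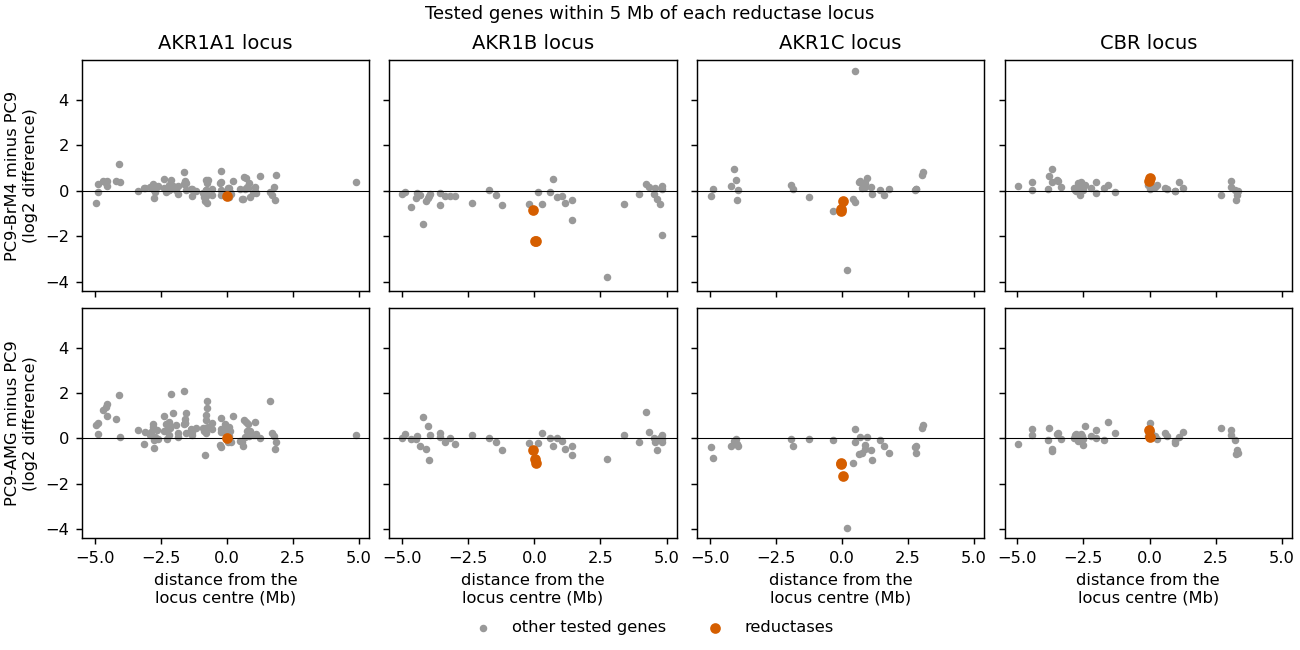
Log2 difference (vertical axis) of the tested genes within 5 Mb of the AKR1A1, AKR1B, AKR1C and CBR loci against distance from the centre of the locus in Mb, for PC9-BrM4 minus PC9 (upper row) and PC9-AMG minus PC9 (lower row). Orange points are the reductases and grey points the other tested genes, among them AKR1C4, which is listed at 0 in 1 library of each subline. The AKR1B and AKR1C reductases lie below most of their neighbours, and AKR1A1 lies among or below its own.

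Other genes of the pathways were taken from lists written with earlier results of these data known, and the background shares above apply to their counts. The 35 NRF2 targets outside the 9 reductases were all tested. In PC9-BrM4 against PC9, 1 rose and 24 fell, the other 10 not passing, and the median log2 difference was -0.24. In PC9-AMG against PC9, 10 rose and 16 fell, the other 9 not passing, and the median was -0.15. In PC9-AMG against PC9-BrM4, 15 rose and 7 fell, the other 13 not passing, and the median was 0.14. The targets thus did not all move in the same direction. Neither did the AKR1 genes in PC9-AMG against PC9-BrM4, where AKR1B10 had 1.31 and AKR1C3 -1.19. ALDH3A1, an aldehyde dehydrogenase, had 409 and 389 TPM in PC9-AMG, 398 and 399 TPM in PC9-BrM4, and 941 and 922 TPM in PC9. It fell by 1.22 on the log2 scale in each subline. UGDH, which makes UDP-glucuronate, had 66.4 and 59.6 TPM in PC9-AMG, 31.0 and 30.0 TPM in PC9-BrM4, and 94.4 and 89.6 TPM in PC9, an order of lines like that of AKR1B10. HMOX1, heme oxygenase, had 68.2 and 67.2 TPM in PC9-AMG, 25.1 and 25.6 TPM in PC9-BrM4, and 35.1 and 39.7 TPM in PC9. It rose in PC9-AMG (0.84, adjusted p = 6.15e-05) and fell in PC9-BrM4 (-0.54), both against PC9, as did the glutathione transferase GSTM3 (0.53 and -0.65). NQO1, a quinone reductase, had 428 and 431 TPM in PC9-AMG, 625 and 637 TPM in PC9-BrM4, and 607 and 608 TPM in PC9. It was lower in PC9-AMG than in PC9-BrM4 (-0.55, adjusted p = 1.73e-05) and PC9 (-0.50), as was the transketolase TKT (-0.40 and -0.34). TRIM16, which has a near copy, was the target that rose in PC9-BrM4 (0.52), and it also rose in PC9-AMG against PC9 (0.38). UGT1A6, whose transcript shares exons with other UGT1A genes, had unequal replicates of 344 and 203 TPM in PC9-AMG and 291 and 203 TPM in PC9-BrM4, against 402 and 487 TPM in PC9. It fell in PC9-BrM4 (-0.86, adjusted p = 0.0255) and in PC9-AMG (-0.74, adjusted p = 0.0377).

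Of 12 genes for NRF2 and its regulators, 5 rose and 1 fell in PC9-BrM4 against PC9, the other 6 not passing (median 0.08). In PC9-AMG 6 rose, 1 fell and 5 did not pass, both against PC9 (median 0.14) and against PC9-BrM4 (median 0.16). NFE2L2, which encodes NRF2, had 176 TPM in PC9-AMG, 159 in PC9-BrM4 and 173 in PC9, and did not pass against PC9 in either subline. KEAP1 had 154 TPM in PC9-AMG, 159 in PC9-BrM4 and 139 in PC9, and was called higher in both. The partners MAFK and MAFF were highest in PC9-AMG, at 62.1 TPM for MAFK against 31.1 in PC9-BrM4 and 25.0 in PC9, and at 61.5 TPM for MAFF against 35.5 in PC9-BrM4 and 34.4 in PC9. PGAM5, a mitochondrial phosphatase that binds KEAP1, rose in both sublines (0.51 in PC9-BrM4 and 0.46 in PC9-AMG), and RBX1, a part of the KEAP1 ubiquitin ligase, fell in both sublines (-0.20 in PC9-BrM4 and -0.51 in PC9-AMG). NFE2L2 and KEAP1 are named for their roles and not by the naming rule.

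**Figure D5:**
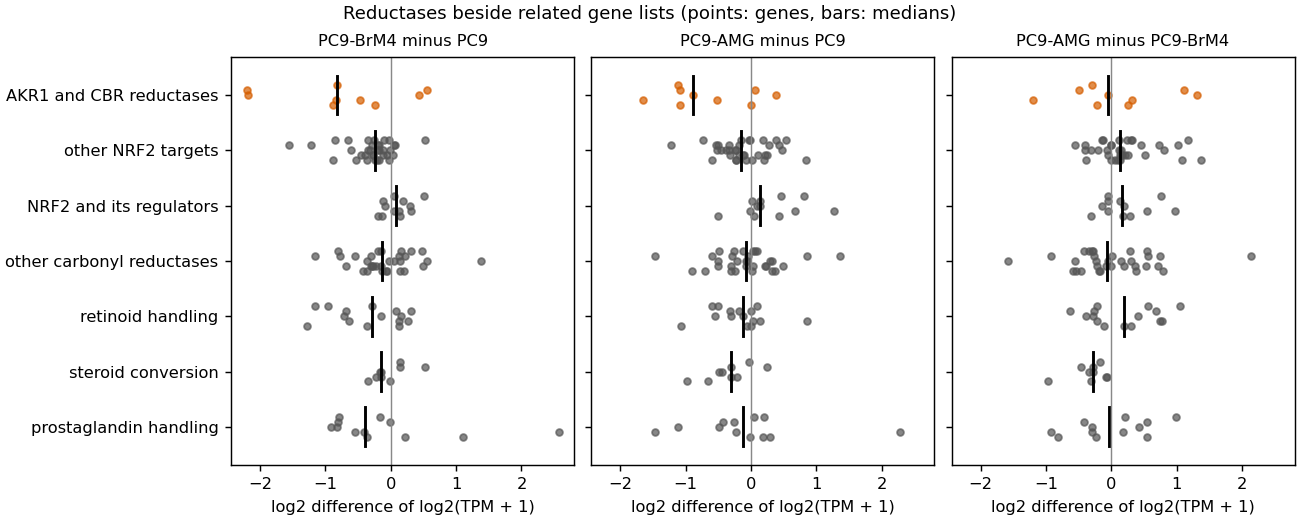
Log2 differences of log2(TPM + 1) (horizontal axis) of the 9 reductases (orange) and of the tested genes of 6 related lists (grey) in the 3 comparisons; points are genes and black bars medians. The reductase median is -0.83 in PC9-BrM4 minus PC9, where the other NRF2 targets have -0.24, and -0.88 in PC9-AMG minus PC9, where they have -0.15.

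Of 10 other aldo-keto reductase genes 6 were tested. In PC9-BrM4 against PC9 none rose, 2 fell and 4 did not pass. In PC9-AMG 1 rose, 2 fell and 3 did not pass against PC9, and 1 rose, 3 fell and 2 did not pass against PC9-BrM4. KCNAB2, a potassium channel subunit with an aldo-keto reductase fold, had 12.9 TPM in PC9-AMG, 6.90 in PC9-BrM4 and 10.7 in PC9. AKR7A2, which reduces succinic semialdehyde, was lower in PC9-AMG (60.0 TPM) than in PC9-BrM4 (73.6 TPM).

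Of 39 carbonyl, retinal and quinone reductases of other families 32 were tested. In PC9-BrM4 7 rose and 12 fell against PC9 (median -0.14). In PC9-AMG 8 rose and 11 fell against PC9 (median -0.07), and 12 rose and 14 fell against PC9-BrM4 (median -0.06). DCXR, which reduces xylulose, had 104 TPM in PC9-AMG, 122 in PC9-BrM4 and 83.0 in PC9. It rose against PC9 in both sublines (0.55 in PC9-BrM4 and 0.32 in PC9-AMG), as did DHRS13 (0.49 and 0.48). CBR4, a mitochondrial carbonyl reductase, was lower in PC9-AMG (19.1 TPM) than in PC9-BrM4 (28.9 TPM) and PC9 (31.7 TPM). PTGR2, a prostaglandin reductase, was lower in PC9-AMG (11.1 TPM) and in PC9-BrM4 (16.5 TPM) than in PC9 (21.7 TPM). HSD17B14 was highest in PC9-AMG, at 13.1 TPM against 2.18 in PC9-BrM4 and 4.46 in PC9, and SPR, which completes tetrahydrobiopterin synthesis, had 91.7 TPM in PC9-AMG, 52.5 in PC9-BrM4 and 71.1 in PC9.

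Genes that share substrates with the members were also counted, and several genes, among them NQO1, PTGR1, DHRS3, RDH13 and HSD17B4, stand in more than 1 list. Of 15 tested retinoid genes, 2 rose and 9 fell in PC9-BrM4 against PC9 (median -0.29), 1 rose and 7 fell in PC9-AMG against PC9 (median -0.12), and 7 rose and 6 fell in PC9-AMG against PC9-BrM4 (median 0.20). DHRS3, which like AKR1B10 reduces retinal, had 59.4 TPM in PC9-AMG, 40.0 in PC9-BrM4 and 90.7 in PC9. STRA6, a retinol transporter, had 57.4 TPM in PC9-AMG, 27.2 in PC9-BrM4 and 53.9 in PC9. RDH13 rose in PC9-AMG, to 39.8 TPM against 21.4 in PC9, and the retinoic acid carrier CRABP2 fell in both sublines, to 167 TPM in PC9-AMG and 220 in PC9-BrM4, against 245 in PC9. ALDH1A3, which makes retinoic acid, rose in PC9-BrM4 by 0.26 on the log2 scale.

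Of 9 tested steroid genes, 1 rose and 2 fell in PC9-BrM4 against PC9 (median -0.14). In PC9-AMG 1 rose and 6 fell against PC9 (median -0.31), and none rose and 6 fell against PC9-BrM4 (median -0.28). SRD5A1, which makes dihydrotestosterone, had 28.2 TPM in PC9-AMG, 56.3 in PC9-BrM4 and 56.7 in PC9, and HSD17B4, a peroxisomal enzyme, had 74.96 TPM in PC9-AMG, 95.3 in PC9-BrM4 and 106 in PC9. SULT2B1, a steroid sulfotransferase, rose in both sublines, to 14.6 TPM in PC9-AMG and 17.9 in PC9-BrM4, against 12.1 in PC9. HSD17B11 fell in both sublines against PC9, by 0.23 in PC9-BrM4 and by 0.31 in PC9-AMG on the log2 scale.

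Of 12 tested prostaglandin genes, 3 rose and 7 fell in PC9-BrM4 against PC9 (median -0.39), 2 rose and 6 fell in PC9-AMG against PC9 (median -0.12), and 6 rose and 5 fell in PC9-AMG against PC9-BrM4 (median -0.03). PTGR1, which inactivates leukotriene B4 and prostaglandin metabolites, had 477 TPM in PC9-AMG, 325 in PC9-BrM4 and 572 in PC9. ABCC4, which exports prostaglandins, had 28.9 TPM in PC9-AMG, 51.5 in PC9-BrM4 and 23.4 in PC9. Among the prostaglandin E synthases PTGES2 rose in PC9-BrM4 (0.22), PTGES3 fell in both sublines (-0.41 in PC9-BrM4 and -0.24 in PC9-AMG), and PTGES was higher in PC9-AMG than in PC9-BrM4 (0.21). The receptor PTGER4 had 20.1 TPM in PC9-AMG, 27.3 in PC9-BrM4 and 27.3 in PC9.

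Profiles were last compared over the 6 libraries among 9448 genes that averaged 10 TPM or more, by the root mean square difference of centred log2 values, where a smaller value is a closer likeness. Closest to AKR1B10 were ACKR3, a chemokine scavenger receptor (0.134), the kinase SYK (0.174) and the adhesion molecule AMIGO2 (0.197). ACKR3 had 11.3 TPM in PC9-AMG, 4.19 in PC9-BrM4 and 24.7 in PC9. Closest to the AKR1C sum were ALDH6A1, a mitochondrial dehydrogenase of valine breakdown (0.0772), the transcription factor SNAI2 (0.0979) and NPC2, which carries cholesterol out of lysosomes (0.107). ALDH6A1 and NPC2 both lie on chromosome 14, and SNAI2 on chromosome 8. NPC2 had 473 TPM in PC9-AMG, 910 in PC9-BrM4 and 1364 in PC9. These are descriptions over 3 lines and were not tested.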

How the data were processed

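Poly(A) RNA was profiled in 3 cell lines with 2 libraries each. Per the labels' protocols, TRIzol extracts went into TruSeq Stranded mRNA libraries. Tools named by the submitters' processing notes are HISAT2 2.1.0, StringTie 1.3.4d and bcl2fastq, and the build is hg38. Per the file headers, the authors deposited TPM, FPKM and mean coverage per gene for each library. Read length and use of strand in counting are not stated. PC9-AMG tables carry EMG in their names and were assigned by the sample records. A whole-series table was not used as its columns could not be matched to the PC9-AMG labels.

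Rows of 1 symbol were summed. Values were taken to log2(TPM + 1), which understates changes of low genes, and 14195 genes with at least 1 TPM in at least 2 libraries were fitted with limma 3.58.1 (R 4.3.3), 1 mean per line, a trended variance and 3 residual degrees of freedom. P-values were Benjamini-Hochberg adjusted over all of them, with a threshold of 0.05. The fit was tested on simulated data. Named are all members, up to 2 called genes per direction of each list that averaged 10 TPM or more in the higher line, the 3 nearest tested genes on each side of a locus, and the 3 closest profiles. Some genes the rule would name are not reported here. Depth was estimated as the median ratio of coverage to FPKM, so no counting interval is given. Replicates may be technical, as no label names separate cultures, and p-values then cover technical spread alone. The members and lists were chosen with earlier results of these data known.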

Additional observations from a re-analysis of the deposited data

How the results depend on the processing

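Each of the 27 member results (9 genes, 3 comparisons) was refitted under 18 alternatives, which were other pseudocounts, filters, scalings and variance settings, FPKM, the most abundant row per symbol, the regional median removed, the replicate block and each library left out. Call and direction held in all of them for 20 results. AKR1A1 in PC9-AMG against PC9, not called at 0.00, turned to -0.013 with FPKM, -0.0201 with quantile normalization, -0.0105 with median centring and -0.412 with the regional median removed, and ranged from -0.0259 to 0.0311 when single libraries were left out; for these changes the cause was not tested. Removing the regional median also turned, in PC9-AMG against PC9-BrM4, AKR1A1 to -0.0493, AKR1C1 to 0.167, AKR1C2 to 0.249 and CBR1 to 0.029, and in PC9-AMG against PC9 CBR3 to -0.0215, and left 5 members called in PC9-AMG against PC9-BrM4. Summing AKR1B10 with AKR1B15 and the 3 AKR1C genes with each other, which leaves 6 features, gave 4 called in PC9-AMG against PC9 and 5 in PC9-AMG against PC9-BrM4. In the main fit 55.5% of all tested genes were called in PC9-AMG against PC9 and 56.1% in PC9-AMG against PC9-BrM4. The 5 of 9 members called with the regional median removed are close to the latter share.

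The replicate numbers were not used to pair the samples in the main fit. The differences between replicates correlated over genes at -0.0627 (PC9-AMG with PC9-BrM4), -0.0277 (PC9-AMG with PC9) and -0.0691 (PC9-BrM4 with PC9). These values show no large shift shared by replicate number. With a single difference per line they cannot decide whether the libraries were prepared in pairs. With the replicate block, 6126 genes were called in PC9-BrM4 against PC9, 7457 in PC9-AMG against PC9 and 7599 in PC9-AMG against PC9-BrM4, and the members called stayed at 9, 7 and 8. Read counts are unknown, so the counting error of low genes could not be given.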

Other observations

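The deposited mean coverage of a gene divided by its FPKM was compared with the median of this ratio in the same library. AKR1B1, AKR1B10, AKR1B15, AKR1C1 and CBR3 lay at 1.00 times the median in every library. AKR1C3 lay at 0.317 times in all 6 libraries, CBR1 at 0.681 to 0.686, AKR1C2 at 0.798 to 0.816 and AKR1A1 at 0.951 to 0.958. The ratio of each of these genes was thus nearly constant over libraries, while their TPM differed between lines. Between genes with unlike ratios, such as AKR1C3 and AKR1C1, coverage and TPM gave different relative levels. The reason was not tested.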
